A study of Mus musculus with 24 samples.

Results

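LLC1 is a mouse line of Lewis lung carcinoma cells, and the libraries described here are the 3 that carry a non-targeting guide RNA (sgNT), set against the sgNT libraries of the other 3 mouse tumour lines of the study. The members were the LLC1 sgNT libraries, 3 of 24 libraries in all, and their comparison group was 9 sgNT libraries, 3 each of MC38 (colon adenocarcinoma), AKR (esophageal carcinoma) and Hepa1-6 (hepatocellular carcinoma). The other 12 libraries of the study carry a guide against B2m, the light chain of MHC class I, and were used only to repeat the comparison between lines. Cells of every line were cultured in serum-supplemented DMEM, and the sequencing libraries kept the strand of the RNA. The labels do not say whether replicates were separate cultures or whether a line was 1 clone, and there is 1 line of each tumour type. The p-values therefore measure the spread among 3 libraries of a line and say nothing of other lung, colon, esophageal or liver tumours.

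Tumour lines keep part of the gene programme of the cell and body region they came from, and lose part of it in culture. In the lung, alveolar type II cells make surfactant, type I cells line the air sacs, and secretory, ciliated and basal cells line the airways. Epithelial cells are held together by cadherins, desmosomes and keratins, while mesenchymal cells make vimentin, fibrillar collagens and transcription factors such as Snai2 and Zeb1. HOX genes record position along the body axis, and imprinted genes are transcribed from 1 parental copy and are held silent on the other by DNA methylation.

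Values are CPM, a gene's reads divided by all gene-assigned reads of its library and scaled to 1000000. The 3 LLC1 libraries held 26149961 to 28081447 reads, against 28352817 to 49717598 in MC38, 28286900 to 32903553 in AKR and 25976291 to 35409413 in Hepa1-6. Mitochondrial genes took 4.38 to 4.49% of the reads in LLC1, 3.07 to 3.21% in MC38, 3.49 to 3.54% in AKR and 4.97 to 5.18% in Hepa1-6. The mitochondrial ribosomal RNA mt-Rnr1 was at 91.5 CPM in LLC1, against 386 in MC38, 294 in AKR and 544 in Hepa1-6. Also lower in LLC1 were 3 neighbouring ribosomal RNA-like features on chromosome 17. The largest, CT010467.1, was at 429 CPM in LLC1, against 1302 in MC38, 9708 in AKR and 2062 in Hepa1-6. Gm42418 was at 28 CPM in LLC1, against 96.6 in MC38, 216 in AKR and 423 in Hepa1-6. The part of this difference in ribosomal RNA in the other results was not tested. On the log2 scale, across genes, the 3 LLC1 libraries correlated with each other at r = 0.996 to 0.997, with AKR at 0.892 to 0.893, with MC38 at 0.882 to 0.886 and with Hepa1-6 at 0.762 to 0.763. These correlations describe libraries over the same genes, which are not independent replicates.

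Of 15505 genes tested, 440 (2.84%) were called higher in LLC1 than in each of the other 3 lines, and 336 (2.17%) were called lower. A call needed a difference of at least 2-fold on the log2(CPM + 1) scale and an adjusted p under 0.05 in all 3 contrasts, from limma with Benjamini-Hochberg adjustment. Genes tested had at least 1 CPM in at least 3 of the 12 sgNT libraries. A gene on in LLC1 alone was thus tested but could not be called lower, here and in the lists below. Without 1 of the LLC1 libraries such genes were no longer tested, and 300 to 304 genes were called higher and 339 to 347 lower. The difference quoted for a gene is the one from its nearest other line, ± its standard error, and the adjusted p is the largest of the 3. Under the same rule 869 and 246 genes were called higher and lower in MC38, 563 and 276 in AKR, and 1239 and 1166 in Hepa1-6. Against single lines, LLC1 had 1689 higher and 1802 lower genes than AKR (10.9 and 11.6%), 1414 and 2173 than MC38 (9.12 and 14%), and 2883 and 2486 than Hepa1-6 (18.6 and 16%). With quantile normalisation the split against MC38 became 1833 higher and 1834 lower. Among the calls, 129 higher and 90 lower genes differed by at least 4-fold from the nearest line. Protein-coding genes made up 378 of the higher and 311 of the lower calls, and long non-coding RNAs 50 and 14.

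The genes that stood farthest above the nearest other line had many reads in LLC1 and few or none in the other lines. Gng2, a gamma subunit of heterotrimeric G proteins at chr14:19872559-19977627 (mm10), had 214, 217 and 206 CPM in the 3 LLC1 libraries and 0 to 0.812 CPM in the 9 others, a log2 difference of 7.14 ± 0.13 from MC38 (adjusted p = 1.23e-14). Nxf3, a member of the nuclear RNA export factor family, had 142, 142 and 138 CPM in LLC1 and 0 to 0.226 CPM elsewhere (6.99 ± 0.11 from Hepa1-6; adjusted p = 2.78e-15). Arhgap30, a GTPase-activating protein, had 125, 122 and 125 CPM in LLC1 and 0 to 0.353 CPM in the others (6.75 ± 0.12 from MC38; adjusted p = 1e-14). These genes were picked for their distance from the nearest line, so the gap between LLC1 and the other libraries is no separate result.

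Mme, the cell-surface metallopeptidase neprilysin (CD10), had 63.3, 76.3 and 76.7 CPM in LLC1 and 0 reads in all 9 other libraries, which is at least 729.6-fold higher than a floor of 3 reads per library in Hepa1-6, the line with the highest floor (adjusted p = 3.01e-15). The B2m-edited libraries held 28 reads of Mme in the other 3 lines together, so it was not at 0 in all of them. Slc38a4, an amino acid transporter, had 256, 249 and 253 CPM in LLC1, against line means of 0.988 in MC38, 3.02 in AKR and 0.335 in Hepa1-6 (5.99 ± 0.17 from AKR; adjusted p = 6.93e-13). Secreted and matrix proteins followed. Ogn, a small leucine-rich proteoglycan, averaged 66.8 ± 2.06 CPM in LLC1 and at most 1.14 CPM in another line. Grem1, a secreted antagonist of bone morphogenetic proteins, averaged 30.7 ± 1.2 CPM and was at 0 to 0.0402 CPM in the 9 other libraries, but at 5.71 CPM in the B2m-edited LLC1 libraries. Efemp1, an extracellular matrix glycoprotein, averaged 29.3 ± 1.99 CPM in LLC1, against 0 in MC38, 0.0309 in AKR and 0.229 in Hepa1-6.

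The rest of the 15 were the endocytic receptor Lrp2 (42.4 ± 2.55 CPM), the TGF-beta co-receptor Eng (69 ± 7.34 CPM), the cation channel Trpa1 (29.7 ± 2.7 CPM), the microtubule-binding protein Clip3 (25.9 ± 1.71 CPM), the vasodilator peptide Adm (29 ± 0.562 CPM), and the X-linked reproductive homeobox genes Rhox2d (68.6 ± 2.29 CPM) and Rhox2g (31 ± 2.14 CPM; SD, n = 3 throughout). Their line means elsewhere did not exceed 1.91 CPM, the mean of Eng in MC38. The Rhox2 and Rhox3 genes are near-identical copies, so the split of reads among them is uncertain. Rhox2h, a neighbour outside the 15, was at 46.3 ± 1.27 CPM in LLC1 and 17.4 CPM in Hepa1-6.

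On the low side, 7 of the 15 genes farthest below the nearest line had no read at all in the 3 LLC1 libraries, and each was well expressed in all 9 others. Rcan3, a regulator of the phosphatase calcineurin, had 0 reads in LLC1 and 36.2 to 56.3 CPM elsewhere, at least 334-fold lower than in AKR (adjusted p = 2.95e-16). Manea, an endomannosidase of glycoprotein trimming, had 0 reads in LLC1 and 30.2 to 95.3 CPM elsewhere (at least 288-fold; adjusted p = 5.85e-16). The remaining genes at 0 were Arhgap32, a GTPase-activating protein (at least 244-fold), Sesn3, a stress-induced sestrin (at least 233-fold), the lipid phosphatase Plpp3 (at least 174-fold), Cachd1 (at least 171-fold) and the kinase Mapkapk3, which acts below p38 (at least 168-fold). These genes were picked for lying farthest below the nearest line, so that all 9 other libraries lay above LLC1 is no separate result.

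Other genes of this group were nearly silent in LLC1. Trim44, a tripartite-motif protein, had 0.959, 0.214 and 0.382 CPM in LLC1, against 55.8 in MC38, 205 in AKR and 323 in Hepa1-6 (-5.25 ± 0.13 from MC38; adjusted p = 2.44e-13). Nfib, a nuclear factor I transcription factor needed for lung maturation in mice, had 0.48, 0.498 and 0.268 CPM in LLC1, against 85 in MC38, 114 in AKR and 35.8 in Hepa1-6 (-4.70 ± 0.093 from Hepa1-6; adjusted p = 6.21e-15). Maged2 had 1 library with any read in LLC1 and 21.4 to 41.9 CPM elsewhere. Coro2a, Hap1 and Ptpn3 reached at most 0.783 CPM in an LLC1 library and averaged at least 23.2 CPM in each other line. Fam84b averaged 2.1 ± 0.43 CPM in LLC1 and Ptgfrn 7.5 ± 0.511 CPM, and for Ptgfrn the other lines were at 334 in MC38, 134 in AKR and 247 in Hepa1-6 (-3.99 ± 0.043 from AKR; adjusted p = 9.11e-17).

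**Figure D1:**
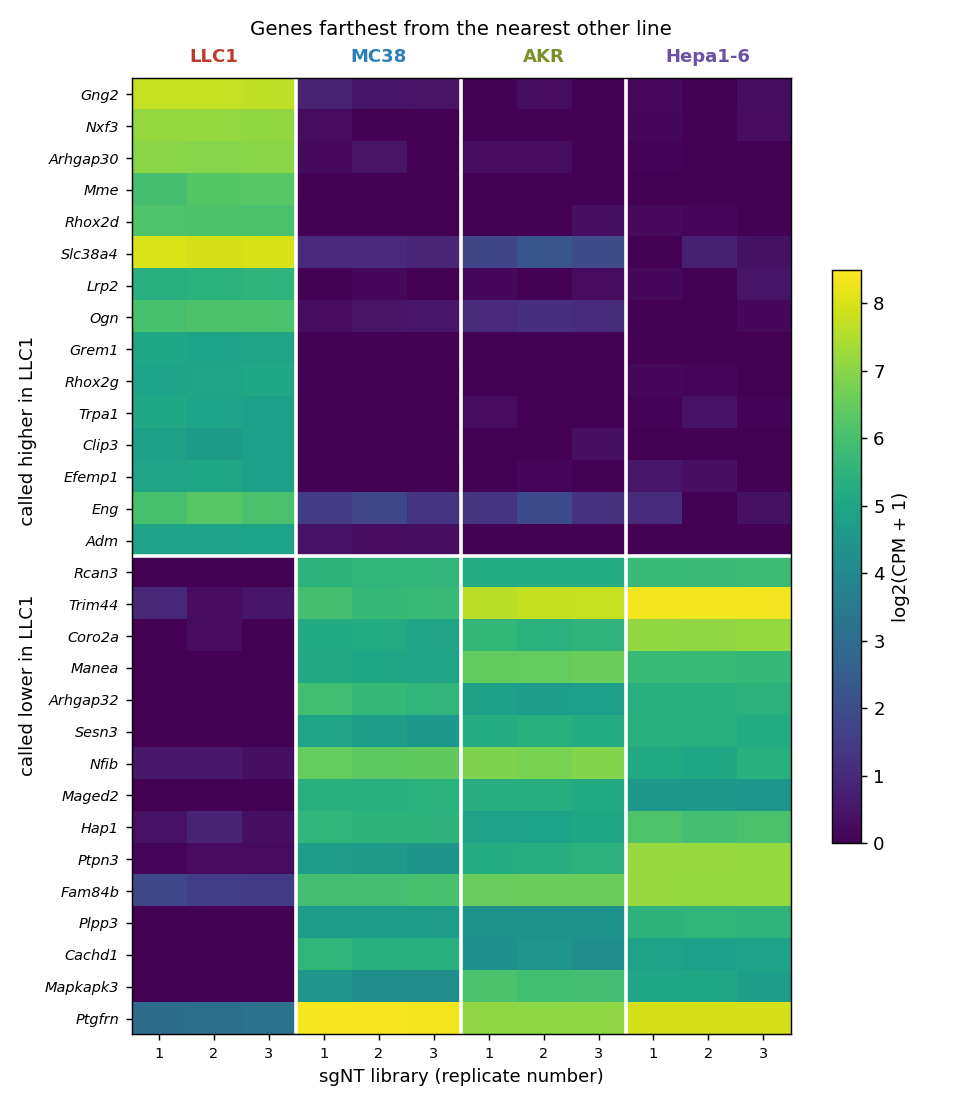
Level of the 15 genes farthest above and the 15 farthest below the nearest other line, as log2(CPM + 1) by colour, with genes in rows and the 12 sgNT libraries in columns, LLC1 at the left. The upper block is bright in the 3 LLC1 columns and dark elsewhere, and the lower block is dark in LLC1, where Rcan3 and Manea have 0 reads, and bright in the other 9 columns.

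The labelled origin of LLC1 is lung, and the defining genes of its surfactant and airway secretory cells were not detected. The surfactant genes Sftpc and Sftpb, which define type II cells, and Scgb1a1, which defines airway secretory cells, had 0 reads in the 3 LLC1 libraries, which allows up to 0.111 CPM at 3 reads per library. Sftpd was also at 0, and Lamp3 was at 0.0237 CPM. Summed type II markers came to 160 to 167 CPM in LLC1, against 148 to 151 in MC38, 180 to 198 in AKR and 374 to 382 in Hepa1-6. Of 13 type II markers with a value 5 had 0 reads in LLC1, 8 were tested, and 2 were called higher, beside 2.84% of all genes. Their list median was -0.24 on the log2 scale, LLC1 minus the mean of the other lines, against -0.031 for all genes tested. The 12 marker lists and 28 pathway lists were drawn up with earlier results of these data known, and their counts carry no test.

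The type II markers called higher were Napsa and Lyz2. Napsa, the aspartic protease that processes surfactant protein B, had 9.34, 10.3 and 10.2 CPM in LLC1 and 0 to 0.247 CPM in the 9 other libraries (3.25 ± 0.10 from AKR; adjusted p = 2.66e-12). Lyz2, a lysozyme that macrophages also express, averaged 4.26 ± 0.386 CPM in LLC1 and 1.19 CPM in Hepa1-6 (1.28 ± 0.13; adjusted p = 6.88e-07). Summed over the 13 myeloid markers in the tables, LLC1 libraries held 21.2 to 25.0 CPM, against 48.5 to 54.8 in MC38, 109 to 114 in AKR and 38.8 to 39.9 in Hepa1-6. The pan-leukocyte gene Ptprc was at 0.0237 CPM in LLC1. Abca3, the lipid transporter of lamellar bodies, was at 48.7 CPM in LLC1, but at 24.1 in MC38, 62.6 in AKR and 121 in Hepa1-6, so it did not set LLC1 apart.

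Summed type I markers came to 723 to 751 CPM in LLC1, against 950 to 981 in MC38, 1096 to 1127 in AKR and 193 to 197 in Hepa1-6, and 1 of the 9 had 0 reads in LLC1. Among them Pdpn (podoplanin) was called lower, with 0 reads in LLC1, against 256 in MC38, 139 in AKR and 3.5 in Hepa1-6 (at least 31.6-fold lower than in Hepa1-6; adjusted p = 1.26e-12). Akap5 was called higher at 2.89 ± 0.613 CPM (1.07 ± 0.16 from AKR), a call that ended when LLC1 replicate 2 or AKR replicate 2 or 3 was left out (differences of 0.94, 0.99 and 0.995) and in the B2m-edited libraries (0.48). No airway, neuroendocrine, squamous or hepatocyte marker was called in either direction. Summed airway markers came to 3.33 to 3.53 CPM in LLC1, against 77.5 to 79.7 in MC38, 4.69 to 6.05 in AKR and 522 to 532 in Hepa1-6. Of the intestinal markers only the mucin Muc2 was called, higher in LLC1 at 6.67 ± 1.57 CPM (1.68 ± 0.16 from MC38). Of the endothelial markers only Eng was called, while Cdh5 and Tek had 0 reads in LLC1 and Kdr was at 0.0971 CPM.

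Genes of epithelial adhesion were low in LLC1, as they were in MC38. Their summed level was 158 to 162 CPM in LLC1, against 107 to 110 in MC38, 1335 to 1374 in AKR and 4758 to 4789 in Hepa1-6, and 4 genes averaged at least 10 CPM in LLC1, against 3 in MC38, 10 in AKR and 23 in Hepa1-6. Of 29 such genes tested, none was called higher and 3 were called lower (10.3%, against 2.17% of all genes), with a list median of -1.63 against -0.031 for all genes. Epcam, the epithelial cell adhesion molecule, had 0 reads in LLC1 and in MC38, and averaged 1.26 CPM in AKR and 51 CPM in Hepa1-6. Cdh1, E-cadherin, had 0.258, 0 and 0.229 CPM in LLC1, against 12.4 in MC38, 0.178 in AKR and 1.75 in Hepa1-6. The keratin Krt19 had 0 reads in LLC1 and the desmosomal gene Dsp was at 0.0615 CPM.

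Jup and Pkp3 were among those lower in LLC1 than in every other line. Jup, the junction protein plakoglobin, had 1.59, 0.89 and 0.879 CPM in LLC1, against 12 in MC38, 102 in AKR and 190.4 in Hepa1-6 (-2.64 ± 0.1 from MC38; adjusted p = 1.62e-11). Pkp3, a desmosomal plakophilin, averaged 3.35 ± 0.507 CPM (-1.14 ± 0.11 from MC38); it was not called with quantile normalisation (-0.88) or in the B2m-edited libraries (-0.066). Unlike Krt19, the simple keratins Krt8 and Krt18 were expressed: Krt8 had 52.7, 56.2 and 56.8 CPM and Krt18 46.6, 45.4 and 43.2 CPM in LLC1. For Krt8 that was higher than in MC38 (1.72 CPM) and lower than in AKR (423 CPM) and Hepa1-6 (1035 CPM).

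Mesenchymal genes were expressed at high level but were mostly shared with MC38 or AKR. Of 37 tested, 4 were called higher (10.8%) and 3 lower (8.11%); the list median was 0.14, and it turned to -0.070 with quantile normalisation and to -0.11 when mitochondrial and the top 100 genes were left out of the column sum, so the list as a whole had no stable direction. Vim, the intermediate filament vimentin, was at 1587 ± 23.4 CPM in LLC1, 2412 in MC38, 2116 in AKR and 584 in Hepa1-6. Zeb1, a repressor of epithelial genes, averaged 167 ± 1.04 CPM in LLC1, against 67.8 in MC38, 99.7 in AKR and 46.6 in Hepa1-6, and missed the call because its difference from AKR was 0.74 ± 0.046. Twist1 was at 21.7 CPM in LLC1, 25.3 in MC38 and 18.1 in AKR, and had 0 reads in Hepa1-6.

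The mesenchymal genes called higher were Thbs2, Acta2, Tgfb2 and Snai2. Thbs2, a matricellular thrombospondin, had 459.6, 448 and 448 CPM in LLC1, against 9.72 in MC38, 70.2 in AKR and 0.132 in Hepa1-6 (2.67 ± 0.12 from AKR; adjusted p = 1.38e-10). Acta2, smooth muscle actin, had 73.6, 73.8 and 73.6 CPM in LLC1, against 3.35 in MC38, 0 in AKR and 0.197 in Hepa1-6 (4.14 ± 0.16 from MC38; adjusted p = 2.54e-11). Snai2, a repressor of E-cadherin, averaged 127 ± 2.99 CPM in LLC1, against 57.1 in MC38, 27.2 in AKR and 0 in Hepa1-6 (1.14 ± 0.059 from MC38), and the growth factor Tgfb2 averaged 26.4 ± 1.83 CPM (1.45 ± 0.11 from MC38). In the B2m-edited libraries these differences from the nearest line were 0.95 for Acta2, 0.39 for Snai2 and 0.50 for Tgfb2, so none of the 3 was called there. The lower calls included Ctgf, a target of YAP and TGF-beta (4.8 ± 1.06 CPM in LLC1, against 32.1 in MC38, 27.2 in AKR and 236 in Hepa1-6), and Sparc (109 ± 3.55 CPM, against 1652 in MC38, 520.3 in AKR and 278 in Hepa1-6). Sparc was 1.34 below Hepa1-6 on the log2 scale in these libraries and 0.20 below it in the B2m-edited ones.

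**Figure D2:**
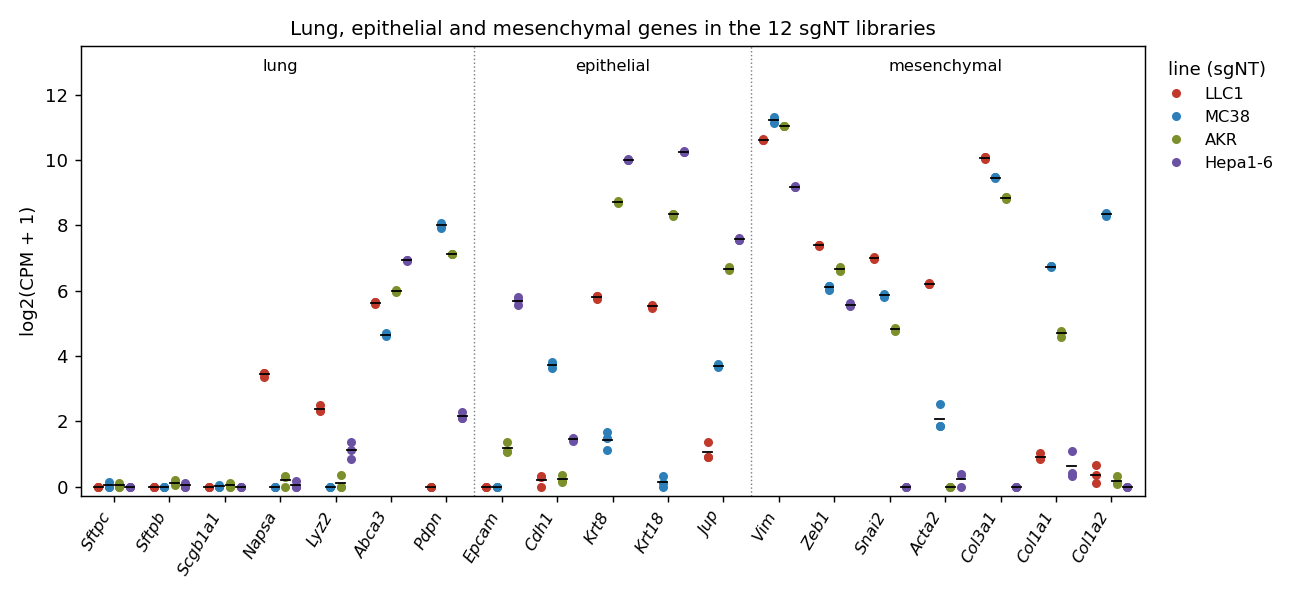
Level of lung, epithelial and mesenchymal genes as log2(CPM + 1) in each sgNT library (points, 3 per line, LLC1 first) with the line mean (bar). Sftpc, Sftpb, Scgb1a1 and Epcam lie at 0 in LLC1, Napsa stands above all other lines, Krt8 and Krt18 lie between MC38 and the other lines, and Col3a1 is high in LLC1 while Col1a1 and Col1a2 are near 0.

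LLC1 expressed collagens of types III, IV, V, VIII and XVIII, and hardly any of type I. Of 20 collagen genes tested 2 were called higher (10.0%) and none lower, with a list median of 1.73. Their summed level was 3825 to 3934 CPM in LLC1, against 4818 to 5179 in MC38, 1961 to 2025 in AKR and 119 to 127 in Hepa1-6. At least 10 CPM on average was reached by 12 genes in LLC1, 16 in MC38, 12 in AKR and 3 in Hepa1-6. High collagen expression was thus shared with MC38. Col8a1, a network collagen of basement membranes and vessel walls, had 360.4, 369 and 372 CPM in LLC1, against 103 in MC38, 0.14 in AKR and 6.9 in Hepa1-6 (1.83 ± 0.081 from MC38; adjusted p = 8.4e-11). Col5a2, which joins fibrils of type I and III collagen, averaged 144 ± 6.6 CPM in LLC1, 58.6 in MC38 and 0 in the other lines (1.28 ± 0.077), and its difference from MC38 in the B2m-edited libraries was 0.28, without a call. Col3a1 was at 1060, 1086 and 1085 CPM in LLC1, against 708 in MC38, 461 in AKR and 0 in Hepa1-6. Col1a1 averaged 0.895 ± 0.12 CPM in LLC1, against 106 in MC38, 25 in AKR and 0.584 in Hepa1-6. Col1a2 averaged 0.311 ± 0.251 CPM in LLC1, against 325 in MC38, 0.134 in AKR and 0 in Hepa1-6. The chains of type I collagen, which often forms fibrils together with type III, were thus close to 0 in LLC1 as in Hepa1-6, and for Col1a2 as in AKR. The basement membrane collagens Col4a1 and Col18a1 were not called: Col4a1 was at 557 CPM in LLC1, against 305 in MC38, 358 in AKR and 33.8 in Hepa1-6, and Col18a1 at 346 CPM, against 80.1 in MC38, 270.1 in AKR and 37.7 in Hepa1-6. Of 10 fibroblast and smooth muscle markers tested only Acta2 was called, and the summed level of the 17 with a value was 1445 to 1481 CPM in LLC1, against 1969 to 2080 in MC38, 553 to 562 in AKR and 24.9 to 29.2 in Hepa1-6.

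Among 26 laminins and integrins, 3 were called higher (11.5%) and 1 lower (3.85%). Lamb1, the beta-1 chain of many basement membrane laminins, had 828, 855 and 841 CPM in LLC1, against 286 in MC38, 189.7 in AKR and 9.72 in Hepa1-6 (1.55 ± 0.067 from MC38; adjusted p = 6.15e-11). Lama3, the alpha-3 chain of epithelial laminin, averaged 16.5 ± 2.47 CPM in LLC1 and at most 0.593 CPM elsewhere (3.45 ± 0.17 from AKR). Itga1, a collagen and laminin receptor, averaged 31.9 ± 0.564 CPM (1.01 ± 0.15 from AKR), and fell just below 2-fold with quantile normalisation (0.99) or without AKR replicate 2 (0.94). Of 32 matrix proteases and inhibitors none was called higher and 2 lower, one of them the urokinase receptor Plaur (27.3 ± 3.91 CPM in LLC1, against 60.6 in MC38, 148 in AKR and 118 in Hepa1-6).

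HOX genes set LLC1 apart at 3 neighbouring genes of the HOXD cluster. Of 34 HOX genes tested 4 were called higher (11.8%) and none lower. The list median was -0.25 here and 0.41 in the B2m-edited libraries, so the list as a whole had no stable direction. Hoxd10 (chr2:74691924-74695105) had 19.1, 19.8 and 18.4 CPM in LLC1, against 2.65 in MC38, 0.0309 in AKR and 0 in Hepa1-6 (2.47 ± 0.099 from MC38; adjusted p = 3.06e-11). Hoxd9 (chr2:74697727-74700208) had 24.1, 20.3 and 22 CPM in LLC1, against 0 in MC38, 7.25 in AKR and 0 in Hepa1-6 (1.49 ± 0.10 from AKR; adjusted p = 9.57e-09). Hoxd11 (chr2:74679557-74687016) had 1.07, 1.35 and 1.15 CPM in LLC1 and 0 reads in the 9 other libraries, at least 12-fold higher. Their ranges in LLC1 lay above those of every other line, which restates the calls. Hoxd8, the next gene of the cluster that was measured, was not higher than in AKR (24 CPM in LLC1, against 31.6 in MC38, 24 in AKR and 0 in Hepa1-6).

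Outside the HOXD cluster Hoxa2 was called higher at 5.59 ± 0.522 CPM (1.81 ± 0.20 from AKR; adjusted p = 1.27e-06), and Hoxa5 was at 7.75 CPM in LLC1, against 4.58 in MC38, 2.45 in AKR and 0.3 in Hepa1-6, without a call. Toward the 5′ end of the HOXA cluster, Hoxa9 was at 1.63 CPM in LLC1, against 20.9 CPM in MC38 and 26.9 CPM in AKR, and Hoxa11 had 0 reads in LLC1, against 9.24 and 39.1 CPM. Hoxc10 and Hoxc11 had 0 reads in LLC1 and averaged 44.6 and 34.8 CPM in MC38. Hoxb9 averaged 1.86 CPM in LLC1 and 43.5 CPM in MC38, so several 5′ genes that MC38 expressed were low or silent in LLC1. In all, 7 of the 37 HOX genes in the tables had 0 reads in LLC1, against 4 in MC38, 12 in AKR and 26 in Hepa1-6.

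**Figure D3:**
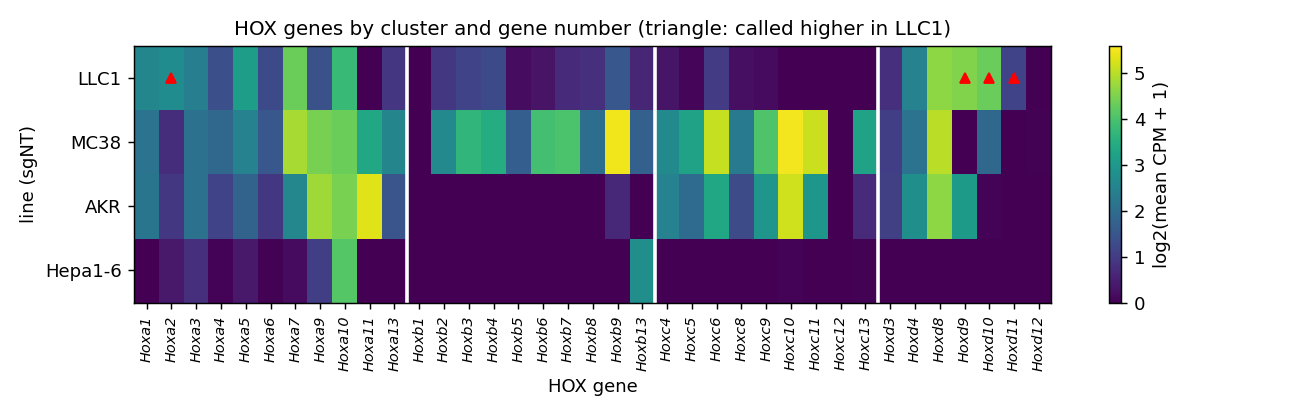
Mean level of each HOX gene as log2(mean CPM + 1) by colour, in cluster order from HOXA to HOXD, with LLC1 in the top row. Triangles mark the 4 genes called higher in LLC1: Hoxa2, and the run of Hoxd9, Hoxd10 and Hoxd11, while the HOXB and HOXC clusters are dark in LLC1, and brighter in MC38 (both) and AKR (HOXC).

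Of 47 other regional and lineage transcription factors tested, 5 were called higher (10.6%, beside 2.84% of all genes tested) and none lower. In the B2m-edited libraries 3 were called higher and 1 lower. Sox11, Dlx2 and Tbx4 passed the filter through LLC1 alone and could not be called lower, so the share is no result about the list as a whole. Sox11, a factor of neural and mesenchymal progenitors, had 15.4, 17.1 and 17.4 CPM in LLC1 and 0 to 0.123 CPM elsewhere (4.08 ± 0.088 from AKR; adjusted p = 6.48e-14). Dlx2, a homeobox gene of jaw and forebrain, averaged 15.6 ± 2.31 CPM in LLC1 and at most 0.437 CPM in another line. Lhx9, a LIM homeobox gene of gonad and limb, averaged 11.3 ± 1.64 CPM in LLC1, against 2.16 in MC38, 0.157 in AKR and 0.0385 in Hepa1-6. Tbx4, a T-box gene of lung mesenchyme and hindlimb, averaged 2.24 ± 0.455 CPM in LLC1 and at most 0.112 CPM elsewhere (1.54 ± 0.11 from AKR; adjusted p = 1.84e-08). Its call was lost with a pseudocount of 4 CPM (0.60). In the B2m-edited LLC1 libraries Tbx4 averaged 0.628 CPM, under the filter. The 5th was Eya1 (51.4 CPM, against 0.926 in MC38, 22.6 in AKR and 0 in Hepa1-6). The endoderm factor Foxa2 was at 1.67 CPM in LLC1, against 0 in MC38, 8.61 in AKR and 69.6 in Hepa1-6, and the intestinal factor Cdx2 was at 2.38 CPM, against 0 in MC38, 6.85 in AKR and 0.179 in Hepa1-6.

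Imprinted genes were the list with the highest share of higher calls among the 28 pathway and family lists. Of 24 with a value 16 were tested, 6 were called higher (37.5%, beside 2.84% of all genes tested) and none lower, with a list median of 0.91. Snrpn, Ndn, Peg10 and Sgce reached 1 CPM in LLC1 alone, so they passed the filter only through LLC1 and could not be called lower. The share of higher calls is therefore no result about the list as a whole. Peg3, a paternally expressed zinc finger gene, had 326, 338 and 332 CPM in LLC1, against 0.0353 in MC38, 26.3 in AKR and 0 in Hepa1-6 (3.61 ± 0.084 from AKR; adjusted p = 1.33e-13). Snrpn, a small nuclear ribonucleoprotein gene of the Prader-Willi region, had 24.7, 22.1 and 22.2 CPM in LLC1 and 0 to 0.0542 CPM elsewhere (4.56 ± 0.084 from MC38; adjusted p = 1.37e-14). Ndn, encoding necdin and also in that region, had 8.41, 9.15 and 9.33 CPM in LLC1 and 0 reads in the 9 other libraries (at least 90.7-fold; adjusted p = 1.59e-13).

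Peg10, a gene derived from a retrotransposon, had 18.4, 22.5 and 19.9 CPM in LLC1 and 0 reads elsewhere (at least 205-fold; adjusted p = 3.51e-14). Its neighbour Sgce, encoding epsilon-sarcoglycan, starts 99 bases away on chromosome 6, and had 18.9, 19.7 and 17.9 CPM in LLC1 and 0 to 0.213 CPM elsewhere (4.22 ± 0.095 from AKR). Mest averaged 6.29 ± 0.882 CPM in LLC1, against 0.627 in MC38, 1.01 in AKR and 0.205 in Hepa1-6 (1.86 ± 0.15 from AKR). Usp29, the neighbour of Peg3 and not a member of the list, averaged 8.27 ± 0.971 CPM in LLC1, 0.571 in AKR and 0 in the other lines. All 6 called members were also called higher in the B2m-edited libraries. All 6 are known as paternally expressed genes in mice. How many members without a call are paternally expressed was not counted, so no pattern by parental copy follows. Imprinted genes that did not follow were Grb10 (71.8 CPM in LLC1, against 0 in MC38, 652 in AKR and 0.0642 in Hepa1-6), Igf2r (213 CPM, against 258 in MC38, 509.9 in AKR and 8.1 in Hepa1-6) and Gnas (541 CPM, against 714 in MC38, 834 in AKR and 854 in Hepa1-6). H19, Igf2 and Dlk1 had at most 0.405 CPM in LLC1.

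The sequence around 4 gene starts is shown because each gene was on in LLC1 and off or low elsewhere, or the reverse, and CG pairs, the sites of DNA methylation, can be counted in them. Each is the 300-base RefSeq window (GRCm38.p6, the build of mm10) from 250 bases before to 50 after the start, read 5′ to 3′ on the gene's strand, with every CG pair in capitals. The Peg3 window is at chr7:6730370-6730669 (minus strand) and holds 13 CG pairs, a count reached by 37.9% of all 32851 windows. The Ndn window is at chr7:62348027-62348326 (plus strand) and holds 11 (41.4%), and the Hoxd10 window is at chr2:74691641-74691940 (plus strand) and holds 22 (23.1%). The Rcan3 window is at chr4:135433756-135434055 (minus strand) and holds 32 (9.52%). No methylation was measured, and 5.43% of windows hold no CG pair.
Peg3: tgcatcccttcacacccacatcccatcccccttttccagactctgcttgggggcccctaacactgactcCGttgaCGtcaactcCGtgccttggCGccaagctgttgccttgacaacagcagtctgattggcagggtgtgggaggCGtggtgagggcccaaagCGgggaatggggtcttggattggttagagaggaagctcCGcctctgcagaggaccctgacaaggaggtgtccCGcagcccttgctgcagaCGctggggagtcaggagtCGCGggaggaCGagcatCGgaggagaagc
Ndn: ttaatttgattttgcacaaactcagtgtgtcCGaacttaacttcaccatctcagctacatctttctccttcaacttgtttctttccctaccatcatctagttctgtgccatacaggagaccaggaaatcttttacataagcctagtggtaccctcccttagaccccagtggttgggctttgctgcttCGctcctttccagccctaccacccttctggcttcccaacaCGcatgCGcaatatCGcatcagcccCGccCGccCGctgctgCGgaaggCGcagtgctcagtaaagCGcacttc
Hoxd10: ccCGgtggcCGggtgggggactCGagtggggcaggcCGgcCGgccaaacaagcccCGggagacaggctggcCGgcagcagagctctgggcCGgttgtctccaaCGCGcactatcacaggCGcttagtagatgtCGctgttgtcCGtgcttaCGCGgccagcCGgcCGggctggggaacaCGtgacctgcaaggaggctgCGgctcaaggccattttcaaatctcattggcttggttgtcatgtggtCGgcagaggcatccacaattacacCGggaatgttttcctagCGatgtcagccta
Rcan3: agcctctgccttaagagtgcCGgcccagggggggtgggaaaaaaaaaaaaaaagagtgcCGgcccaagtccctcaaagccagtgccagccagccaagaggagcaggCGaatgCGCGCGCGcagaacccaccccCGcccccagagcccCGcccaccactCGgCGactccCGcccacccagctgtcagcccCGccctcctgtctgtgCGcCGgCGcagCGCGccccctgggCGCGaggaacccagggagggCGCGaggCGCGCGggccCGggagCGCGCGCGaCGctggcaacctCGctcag

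Among genes of growth control, Myc and its neighbour Pvt1 were called higher. Myc, a transcription factor that drives cell growth and division, had 865, 869.5 and 811 CPM in the LLC1 libraries, against 110.2 in MC38, 30.7 in AKR and 166 in Hepa1-6 (2.35 ± 0.044 from Hepa1-6; adjusted p = 3.49e-15). Its downstream neighbour on chromosome 15, the non-coding RNA Pvt1, had 326, 299.6 and 312 CPM in LLC1, against 50 in MC38, 18.3 in AKR and 28.1 in Hepa1-6 (2.62 ± 0.067 from MC38; adjusted p = 2.51e-13). In the B2m-edited libraries Myc was at 366 CPM in LLC1 and 359 CPM in Hepa1-6, a log2 difference of 0.027, and Myc was not called there, while Pvt1 was. Hras was at 12 CPM in LLC1, against 23.4 in MC38, 473 in AKR and 58.7 in Hepa1-6.

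Myc was the only call among 35 RAS to ERK genes, whose list median was -0.098. The cell cycle inhibitors Cdkn2a and Cdkn2b had 0 reads in LLC1, MC38 and AKR, and averaged 14.7 and 62.2 CPM in Hepa1-6. Trp53 was at 179 CPM in LLC1, against 457 in MC38, 184 in AKR and 111 in Hepa1-6. None of 30 cell cycle and replication genes was called at 2-fold. Among 36 genes of the p53 and RB pathways, Fas was called higher and the BH3-only gene Pmaip1 lower (4.58 ± 0.567 CPM in LLC1, against 39 in MC38, 42.1 in AKR and 110.3 in Hepa1-6). Egfr was at 22.4 CPM in LLC1, against 2.8 in MC38, 39.3 in AKR and 169.7 in Hepa1-6, and Met at 116 CPM, against 68.7 in MC38, 43.7 in AKR and 202 in Hepa1-6; of 43 receptor tyrosine kinases and ligands only Ephb4 was called, lower in LLC1 (12.8 ± 1.41 CPM, against 87.4 in MC38, 29.5 in AKR and 161 in Hepa1-6).

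The X-inactivation RNA Xist was at 2348, 2277 and 2144 CPM in LLC1 and at a mean of 1257 CPM in Hepa1-6, while MC38 and AKR were at 0.356 and 0.134 CPM. The Y-linked gene Uty had 0 reads in all 12 libraries. Hmga2, a chromatin protein of embryonic and tumour cells, was at 699 CPM in LLC1, against 525 in MC38, 89.5 in AKR and 0.669 in Hepa1-6.

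In the immune lists, calls went in both directions for chemokines and cytokines, and only downward for MHC class I and interferon response genes. Of 19 chemokine genes tested 4 were called higher (21.1%) and 2 lower (10.5%), with a list median of 0.73 in these libraries and of -0.47 in the B2m-edited ones. Cxcl5 had 288, 294 and 304 CPM in LLC1, against 0.0536 in MC38, 1.91 in AKR and 16.3 in Hepa1-6 (4.10 ± 0.10 from Hepa1-6; adjusted p = 9.57e-14). Cxcl1 had 215, 215 and 190.3 CPM, against 86.2 in MC38, 51.2 in AKR and 11.9 in Hepa1-6 (1.25 ± 0.085 from MC38; adjusted p = 8.81e-09). Both are ligands of the neutrophil receptor CXCR2. In the B2m-edited libraries, LLC1 held 206 CPM of Cxcl5, against 133 CPM in Hepa1-6, and 142 CPM of Cxcl1, against 133 CPM in Hepa1-6. The differences from the nearest line were 0.62 and 0.086, and neither was called. Cxcl12, the ligand of CXCR4, had 3.28, 3.92 and 4.51 CPM in LLC1 and 0 reads in the 9 other libraries (at least 39.5-fold; adjusted p = 3.95e-11). Ccl28 averaged 11.3 ± 1.16 CPM in LLC1, against 1.78 in MC38, 1.71 in AKR and 0.141 in Hepa1-6.

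Lower in LLC1 were Cxcl10, an interferon-induced ligand of the T cell receptor CXCR3 (1.19 ± 0.171 CPM, against 7.47 in MC38, 10.6 in AKR and 15.6 in Hepa1-6; -1.94 ± 0.14 from MC38), and Ccl27a, with 0 reads in LLC1, against 4.86 in MC38, 3.67 in AKR and 2.55 in Hepa1-6. Cxcl16, the chemokine named in the title of the series, was at 3.5, 4.99 and 6.31 CPM in LLC1, below MC38 (18.6) and Hepa1-6 (28.6) and above AKR (0.912), so it was not called. Ccl2, a monocyte attractant, was at 348 CPM in LLC1, against 573 in MC38, 146 in AKR and 1.28 in Hepa1-6. Csf1, the macrophage growth factor, had 670.2, 674 and 648 CPM in LLC1, against 208 in MC38, 163 in AKR and 56.8 in Hepa1-6 (1.67 ± 0.035 from MC38; adjusted p = 3.82e-14), but the difference was 0.11 in the B2m-edited libraries. Lcn2, an iron-sequestering protein of neutrophils and inflamed epithelium, averaged 113 ± 0.948 CPM in LLC1, against 2.17 in MC38, 9.48 in AKR and 4.66 in Hepa1-6 (3.44 ± 0.15 from AKR; 0.43 in the B2m-edited libraries).

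Of 33 cytokine and growth factor genes 2 were called higher (6.06%) and 5 lower (15.2%). The lower ones were Gdf15 (0.373 ± 0.357 CPM in LLC1, against 3.54 in MC38, 204 in AKR and 27.1 in Hepa1-6), Lif (3.08 ± 0.188 CPM, against 9.66 in MC38, 41.3 in AKR and 21.6 in Hepa1-6), Clcf1 (13.4 ± 0.687 CPM, against 43 in MC38, 33.6 in AKR and 41.3 in Hepa1-6), Angptl4 (0.661 CPM, against 7.77 in MC38, 4.31 in AKR and 2.4 in Hepa1-6) and Il7 (0.341 ± 0.14 CPM, against 6.76 in MC38, 1.83 in AKR and 4.61 in Hepa1-6). The Il7 call ended without AKR replicate 1 (a difference of -0.96) and in the B2m-edited libraries (-0.47). Il6 was at 1 CPM and Csf2 and Csf3 at 0.0892 and 0.185 CPM in LLC1.

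Of 25 genes of MHC class I and peptide loading tested, none was called higher and 4 lower (16.0%), with a list median of -0.58. Psmb8, an immunoproteasome subunit, had 0.812, 0.748 and 0.765 CPM in LLC1, against 27.7 in MC38, 28.3 in AKR and 10.8 in Hepa1-6 (-2.73 ± 0.12 from Hepa1-6; adjusted p = 5.3e-11). Tap1, a subunit of the peptide transporter, averaged 9.84 ± 0.402 CPM, against 24.4 in MC38, 23.1 in AKR and 37.6 in Hepa1-6 (-1.15 ± 0.076 from AKR; adjusted p = 7.03e-09). Its partner Tap2 had its highest mean in LLC1 without a call, at 58.3 CPM in LLC1, against 35.8 in MC38, 31.8 in AKR and 5.66 in Hepa1-6. Tapbpl, a peptide editor, averaged 2.73 ± 0.277 CPM, against 14.8 in MC38, 21.6 in AKR and 16.7 in Hepa1-6. H2-Q4, a non-classical class I gene, averaged 9.67 ± 1.77 CPM, against 34.6 in MC38, 52.4 in AKR and 27.4 in Hepa1-6; class I genes are close copies of each other, and their reads can be split or lost.

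The classical heavy chain H2-K1 had 58.1, 57.8 and 53.4 CPM in LLC1, against 359 in MC38, 383 in AKR and 0 in Hepa1-6, a log2 difference of -2.65 ± 0.051 from MC38 and -2.74 ± 0.051 from AKR, so LLC1 lay between those lines and Hepa1-6. H2-D1 was at 425 CPM in LLC1, against 522 in MC38, 539 in AKR and 304 in Hepa1-6, and B2m at 600.3 CPM, against 909.8 in MC38, 407 in AKR and 231 in Hepa1-6. The class I transactivator Nlrc5 was at 49 CPM in LLC1, against 69.5 in MC38, 36.9 in AKR and 11.5 in Hepa1-6, and Mr1, which presents vitamin metabolites, was at 55.2 CPM, against 28.3 in MC38, 21.8 in AKR and 23 in Hepa1-6.

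Of 37 type I interferon response genes tested none was called higher and 4 lower (10.8%), with a list median of -1.28. In the B2m-edited libraries 9 were lower and the median was -1.50. Their summed level was 250 to 255 CPM in LLC1, against 337 to 349 in MC38, 424 to 430 in AKR and 1578 to 1610 in Hepa1-6. At least 10 CPM on average was reached by 7 genes in LLC1, 9 in MC38, 14 in AKR and 29 in Hepa1-6. MC38 and AKR were thus nearer to LLC1 than to Hepa1-6, which weighs on the list median. The line mean was lowest in LLC1 for 23 of the 37, against 25.6% of all genes tested. Ifih1, the RNA sensor MDA5, had 0.258, 0.107 and 0.535 CPM in LLC1, against 9.49 in MC38, 23.3 in AKR and 36.2 in Hepa1-6 (-3.02 ± 0.12 from MC38; adjusted p = 1.86e-11). Oas1a, an oligoadenylate synthetase that activates RNase L, had 0.221, 0.214 and 0 CPM in LLC1, against 5.7 in MC38, 6.87 in AKR and 67.8 in Hepa1-6 (-2.55 ± 0.10 from MC38; adjusted p = 3.06e-11). Oas3 and Oasl2 averaged 3.42 ± 0.66 and 1.13 ± 0.437 CPM in LLC1, against 8.14 and 3.24 CPM in MC38. Both lay close to 2-fold: neither was called with quantile normalisation (-0.77 and -0.76), Oas3 was not called without LLC1 replicate 2 or MC38 replicate 2 (-0.97 and -0.95), and Oasl2 not without LLC1 replicate 1 or 2 or MC38 replicate 1 (-0.98, -0.87 and -0.90). Ddx58, the sensor RIG-I, was at 29.2 CPM in LLC1, against 20.7 in MC38, 99.8 in AKR and 95.8 in Hepa1-6.

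Among nucleic acid sensors, Tlr3 was lower (1.2 ± 0.691 CPM in LLC1, against 13.6 in MC38, 4.62 in AKR and 5.36 in Hepa1-6) and Tlr9 higher (2.15 ± 0.681 CPM, against 0.0451 in MC38, 0.0709 in AKR and 0 in Hepa1-6), but neither was called in the B2m-edited libraries (-0.38 and 0.63). Mb21d1, the DNA sensor cGAS, was at 0.0725 CPM in LLC1 and 0 in Hepa1-6, against 6.73 and 5.92 CPM in MC38 and AKR. Pvr, a ligand of the T and NK cell receptors TIGIT and DNAM-1, was lower in LLC1 (47.5 ± 4.92 CPM, against 159 in MC38, 269.8 in AKR and 131 in Hepa1-6; -1.45 ± 0.058 from Hepa1-6; adjusted p = 1.47e-11), and was the single call among 22 checkpoint and co-stimulatory ligands. Cd274, encoding PD-L1, had 10, 10.9 and 12.6 CPM in LLC1, the highest mean of the 4 lines (1.76 in MC38, 6.7 in AKR and 5.63 in Hepa1-6), but differed from AKR by 0.66 ± 0.15, under 2-fold. The NKG2D ligand H60b averaged 2.06 ± 0.314 CPM in LLC1 and at most 0.0535 CPM elsewhere. Vcam1 averaged 225 ± 2.7 CPM, against 94.6 in MC38, 22.4 in AKR and 0.113 in Hepa1-6 (1.24 ± 0.096 from MC38; 0.60 in the B2m-edited libraries).

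**Figure D4:**
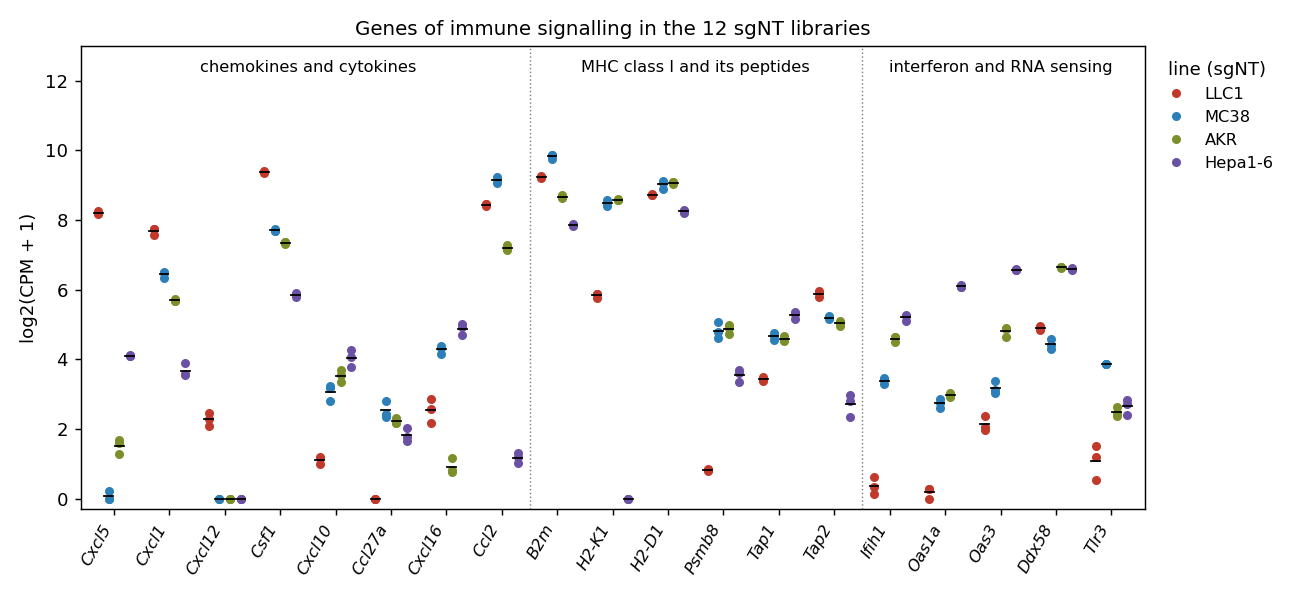
Level of chemokine, cytokine, MHC class I and interferon genes as log2(CPM + 1) in each sgNT library (points, 3 per line, LLC1 first) with the line mean (bar). Cxcl5, Cxcl1, Cxcl12 and Csf1 are highest in LLC1, Psmb8, Tap1, Ifih1 and Oas1a are lowest there, and H2-K1 lies between Hepa1-6 at 0 and the other lines.

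Cell death genes changed in both directions: of 32 tested 3 were called higher (9.38%) and 2 lower (6.25%). Bcl2, which blocks mitochondrial apoptosis, had 67.6, 61.5 and 61.5 CPM in LLC1, against 14.3 in MC38, 3.05 in AKR and 6.17 in Hepa1-6 (2.08 ± 0.13 from MC38; adjusted p = 2.75e-09). Birc3, an inhibitor of apoptosis in NF-kB signalling, was lower, at 2 ± 0.4 CPM in LLC1, against 33.7 in MC38, 21.4 in AKR and 14.2 in Hepa1-6 (-2.35 ± 0.10 from Hepa1-6). Casp1, the inflammasome caspase, averaged 11.9 ± 1.62 CPM, against 1.5 in MC38, 0.194 in AKR and 5.05 in Hepa1-6, and its call ended with quantile normalisation (0.99), without LLC1 replicate 3 (0.99) and in the B2m-edited libraries (0.87). Fas, the death receptor, averaged 8.07 ± 0.947 CPM, against 2.09 in MC38, 0.336 in AKR and 2.46 in Hepa1-6 (1.40 ± 0.15 from Hepa1-6). In the B2m-edited libraries Fas was not called. There LLC1 held 9.36 CPM, below MC38 at 11.8 CPM (a difference of -0.31) and above AKR (0.509 CPM) and Hepa1-6 (5.19 CPM).

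Signalling and metabolic lists held few calls. Wnt7b, a Wnt ligand of lung and brain vessel development, averaged 21 ± 1.05 CPM in LLC1, against 0.134 in MC38, 1.48 in AKR and 0 in Hepa1-6, and the repressor Tcf7l1 27.4 ± 1.27 CPM, against 7.83 in MC38, 9.75 in AKR and 0.168 in Hepa1-6; these were 2 of 34 Wnt genes (5.88%). Jag1, a Notch ligand, averaged 2.12 ± 0.232 CPM in LLC1, against 20.9 in MC38, 20.1 in AKR and 273 in Hepa1-6 (-2.76 ± 0.099 from AKR; adjusted p = 1.05e-11), and the Notch target Hes1 averaged 1.05 ± 0.389 CPM, against 9.82 in MC38, 36.2 in AKR and 36.9 in Hepa1-6 (-2.41 ± 0.11 from MC38; adjusted p = 1.41e-10). With Ctgf these were 3 lower calls among 30 Hippo, Hedgehog and Notch genes (10.0%). Ldhb, the lactate dehydrogenase B subunit, averaged 6.11 ± 0.195 CPM in LLC1 and at most 0.0792 CPM elsewhere, and with Adm made 2 of 36 hypoxia and glycolysis genes called higher. Slc7a3, a cationic amino acid transporter, averaged 39.2 ± 2.76 CPM in LLC1, against 3.69 in MC38, 1.09 in AKR and 0.432 in Hepa1-6.

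Few lipid and redox genes were called, all of them lower, at 4.88 and 2.63% beside 2.17% of all genes tested. So few calls are no result about the lists as a whole. Fdps, an enzyme of isoprenoid synthesis, averaged 73.5 ± 1.28 CPM in LLC1, against 511 in MC38, 207 in AKR and 296 in Hepa1-6, and Srebf1, a regulator of fatty acid synthesis, 35.6 ± 1.71 CPM, against 97 in MC38, 77.1 in AKR and 144 in Hepa1-6; they were 2 of 41 lipid genes (4.88%). Nqo1, an NRF2 target, averaged 22.3 ± 1.28 CPM, against 133 in MC38, 114 in AKR and 48.4 in Hepa1-6, the single call of 38. In the B2m-edited libraries the differences from the nearest line were -0.043 for Fdps, -0.12 for Srebf1 and -0.32 for Nqo1, and none was called. The sterol enzyme Hmgcs1 was not called, at 126 CPM in LLC1, against 747 in MC38, 64.6 in AKR and 622 in Hepa1-6.

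**Figure D5:**
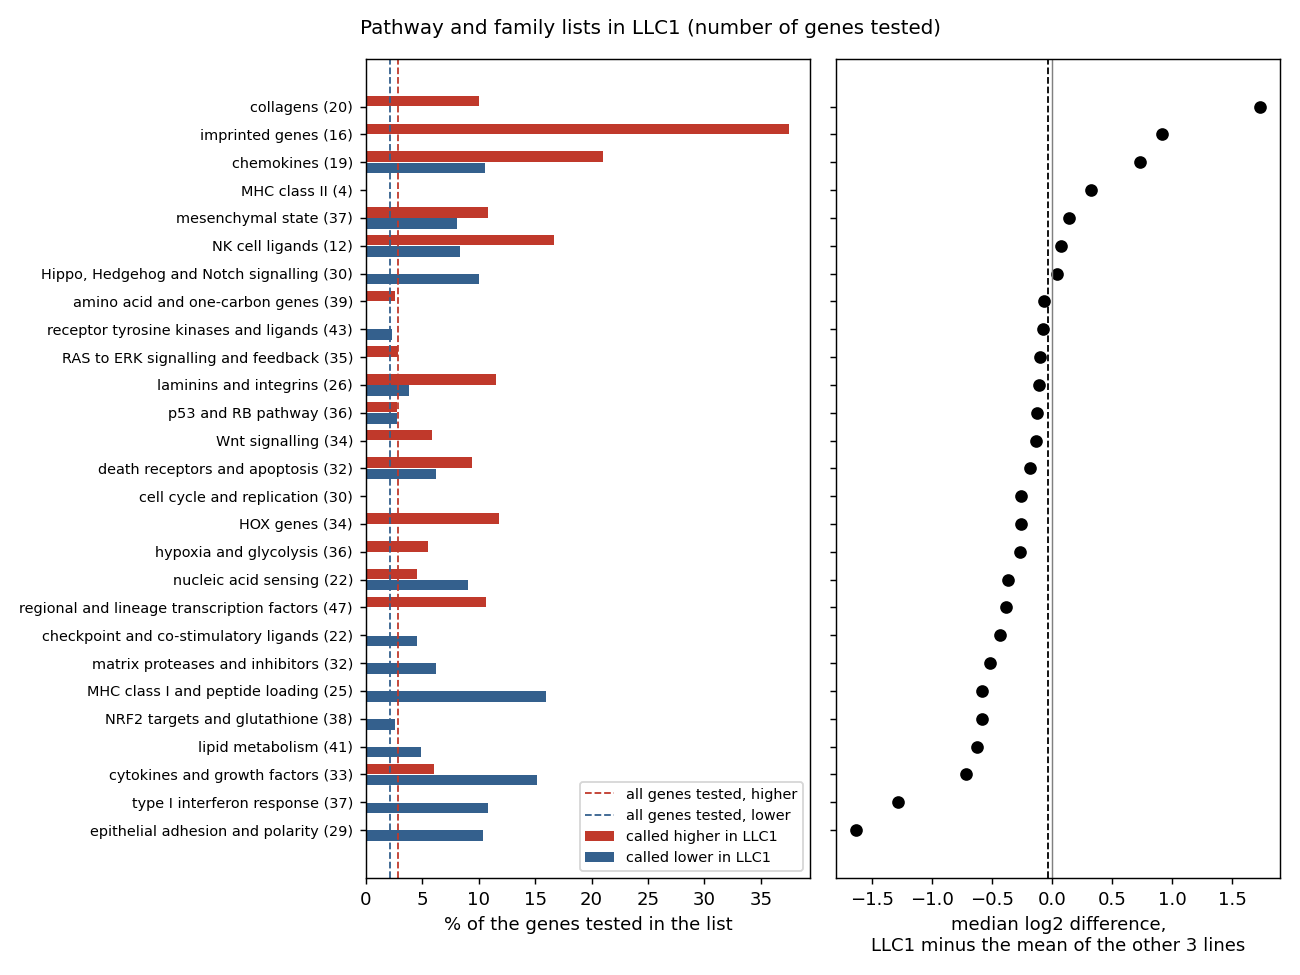
Share of the tested genes of each pathway or family list called higher or lower in LLC1, without the sex chromosome list with its 1 gene tested (left; dashed lines give the same shares over all genes tested, 2.84 and 2.17%) and the median log2 difference of the list, LLC1 minus the mean of the other 3 lines (right; dashed line, -0.031 over all genes tested). Imprinted genes have the highest share of higher calls, 37.5%, though several of them passed the filter through LLC1 alone. Collagens and epithelial adhesion genes lie at the ends of the median scale, 1.73 and -1.63. MC38 had a higher summed collagen level and a lower summed epithelial adhesion level than LLC1.

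Genes without a read in LLC1 lay mostly on chromosomes 4 and 9. Of the 336 genes called lower, 28 had 0 reads in the 3 LLC1 sgNT libraries, 14 of them on chromosome 4 and 8 on chromosome 9, which hold 931 and 857 of the 15505 genes tested. The mean in the lowest other line was between 1.12 and 37.0 CPM for these genes. In the B2m-edited LLC1 libraries 27 of the 28 again had 0 reads, and Mtm1 had 5. On chromosome 4 they ranged from Manea (chr4:26324506-26346891) to Fbxo44 near the other end, and included Pdpn, Plpp3, Cachd1, and the neighbours Rcan3 (chr4:135412308-135433853) and Nipal3 (chr4:135445420-135495038). On chromosome 9 Mapkapk3, Cish and Hemk1, 3 neighbours between positions 107254927 and 107338350, were all at 0; Cish is a feedback inhibitor of cytokine signalling.

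Conversely, 18 of the 440 genes called higher had 0 reads in the 9 sgNT libraries of the other lines, and 11 of these were also at 0 in the other lines' B2m-edited libraries. Beside Mme, Ndn, Peg10, Cxcl12 and Hoxd11 they were Adcyap1r1, BC030500, C1qtnf7, Fam105a, Gm13544, Gm38393, Nkx2-2, Nkx2-2os, Plpp7, Prdm6, Rhox3g, Tmem26 and Zfp709. Nkx2-2, a homeobox gene of ventral neural tube and pancreas, averaged 5.47 CPM in LLC1 and lies beside its antisense partner Nkx2-2os, and Adcyap1r1, a neuropeptide receptor, averaged 11.2 CPM. Whether the counting used the strand is not given in the sources used here, so the reads of that pair cannot be told apart.

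Some called genes were neighbours among the genes tested. Ordered by position, 84 of the 440 higher genes (19.1%) stood in 37 runs of at least 2 neighbours called higher. Of the 336 lower genes 55 (16.4%) stood in 26 runs called lower. Over all genes tested 2.84% were called higher and 2.17% lower, and the share of runs to be met by chance was not worked out. Neighbours could also lie far apart, as Sox11 and Rps7 did in a run at chr12:27334264-28635953. Beside Myc with Pvt1, the HOXD genes and the Rhox2 genes, the longer runs held the C-type lectins Clec1b, Clec9a and Clec1a on chromosome 6 (105 ± 6.98 CPM for Clec1a in LLC1, against 14.1 in MC38, 10.9 in AKR and 0 in Hepa1-6) and the semaphorins Sema3a and Sema3e with Speer3 on chromosome 5 (304 CPM for Sema3e, against 0.00903 in MC38, 41.1 in AKR and 0.141 in Hepa1-6). Protocadherin genes formed further runs, with Pcdhb18 at 7.49 ± 0.535 CPM in LLC1, against 1.09 in MC38, 0.489 in AKR and 0.0916 in Hepa1-6; the Pcdhb21 call ended without LLC1 replicate 1 (0.88) or MC38 replicate 2 (0.92). Lower runs included Trim14, Coro2a and Tbc1d2 on chromosome 4, at 0.135, 0.0593 and 0.345 CPM in LLC1. Overlapping and near-identical genes can share reads, and the part of this in such runs was not tested. These runs were looked for after the calls were known.

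By chromosome, higher calls were most frequent on chromosome 12, where 44 of 564 genes tested (7.80%) were called higher and 5 lower, and the median difference between LLC1 and the mean of the other lines was 0.54. Chromosome 18 followed with 6.10% and chromosome 1 with 4.24%, at medians of -0.076 and 0.24. Lower calls were most frequent on chromosome 4 (48 of 931, 5.16%) and chromosome 11 (55 of 1198, 4.59%), at medians of -0.16 and -0.45. On chromosome 11 the median difference was -0.42 from MC38, -0.52 from AKR and -0.21 from Hepa1-6, so LLC1 was lower against each line. On chromosome 12 it was 0.50 from MC38, 0.34 from AKR and 0.67 from Hepa1-6, so LLC1 was higher against each. The medians of chromosomes 1, 4, 11 and 12 kept their sign under each scaling tried. Those of most other chromosomes did too, so this sets none of them apart. Copy number was not measured in these samples.

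The comparison between lines was repeated in the 12 B2m-edited libraries, which share no library with the sgNT ones but are edited derivatives of the same lines. Of the 440 genes called higher in LLC1 sgNT libraries, 295 were called higher there too (67.0% of 440 and 68.0% of 434), and of the 336 called lower 222 were (66.1% of 336 and 63.4% of 350). None was called in the opposite direction. Of 122 called genes followed singly through the alternatives, 21 were tested in the edited libraries and not called, among them Myc, Csf1, Cxcl1, Cxcl5, Acta2, Snai2, Sparc and Fas. Genes that failed the filter there are outside this count, such as Cxcl12, at 0.349 CPM in the edited LLC1 libraries.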

How the data were processed

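RNA-seq gene levels of 24 libraries, 3 per line and guide, were used. The authors deposited, per line, log2(count divided by a size factor, plus 1), per the file headers and values. FastQC 0.11.5, STAR, DESeq2 and mm10 are named in the submitters' processing notes; the gene counter, annotation and strand setting are not given in the sources used here. Each value was turned back to the linear scale and divided by its column sum, and genes missing from a line's table were set to 0. The linear values were whole multiples of 1 read (100% within 0.05 reads in every library), which gave a depth of 25976291 to 49717598 reads in the sgNT libraries. The deposited unit is log2, so log2(CPM + 1) was tested with limma 3.58.1 (R 4.3.3), with a trend, 1 mean per line and no covariate, on genes with at least 1 CPM in at least 3 of the 12 sgNT libraries. Floors of 3 reads per library cover counting error only. One LLC1 title reads ssgNT and was taken as sgNT.

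The genes named were drawn from the 15 genes farthest from the nearest line in each direction with a mean of at least 10 CPM, up to 4 called members per list and direction, and a fixed set of tumour, lineage and immune genes. A further 71 genes were looked up after their values were seen, and a few genes these rules name are not reported here. Members and lists were chosen with earlier results of these data known. The fit was tested on simulated data. Gene positions come from GENCODE vM21 (34787 of 34866 gene IDs matched) and start windows from RefSeq. Alternatives covered pseudocounts, filters, scaling, the fold, each line, each replicate, a replicate block and the B2m-edited libraries.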

Additional observations from a re-analysis of the deposited data

How the results depend on the processing

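The counts of called genes were 440 higher and 336 lower in LLC1 than in each other line. With a pseudocount of 4 CPM they were 250 and 208, with 919 genes higher than in MC38, 1042 higher and 1168 lower than in AKR, and 179 and 132 calls shared with the B2m-edited libraries, against 295 and 222. With a 4-fold threshold they were 129 and 90, with 417 and 777 against MC38, 492 and 638 against AKR, and 1145 and 1108 against Hepa1-6. limma voom on the recovered reads called 563 higher and 589 lower. Without the MC38 line 989 and 689 were called, without AKR 795 and 724, and without Hepa1-6 684 lower; fewer lines to pass is the alternative's own construction. Leaving out 1 library gave 300 to 451 higher and 331 to 347 lower. Against single lines it gave 1263 to 1469 and 1875 to 2198 for MC38, 1530 to 1697 and 1607 to 1840 for AKR, and 2705 to 2901 and 1962 to 2506 for Hepa1-6. The low ends for higher genes came from leaving out an LLC1 library: 300 to 304 higher than in each line, against 431 to 451 without any other library. The filter still asked for 1 CPM in 3 libraries, so genes on in LLC1 alone were no longer tested. That drop follows from the filter and does not measure the spread of replicates.

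Of 122 called genes followed singly, 42 lost the call in at least 1 of 26 alternatives, 29 of them with a pseudocount of 4 CPM, 5 with quantile normalisation and 21 in the B2m-edited libraries; Fas was reversed there (-0.31, against 1.40), and the cause was not tested. The same replicate numbers did not pair the libraries (r of -0.058 to 0.066 between their deviations from the line means), and with a replicate block the counts were 440 and 336. Precision is limited for genes near 1 CPM, where the pseudocount shrinks differences, and by 3 libraries per line.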
